A study of Homo sapiens with 4 samples.

Results

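Olfactory receptor genes of chromosome 11 were examined in ATAC-seq libraries of HepG2, a hepatocellular carcinoma cell line, as an example of chromatin that a liver cell keeps closed. Members were taken by symbol: GENCODE coding genes of chromosome 11 named OR, a number, letters and a number. This gave 172 genes of the 1317 coding genes on the chromosome, and 6 receptor genes with a P at the end of the symbol stayed among the 1145 other coding genes. A window was the gene with 10 kb on either side, and the 172 windows merged into 93 stretches of 3.56 Mb. The untreated group (control) and the group given 5 µM tazemetostat for 48 h had 2 libraries each. Both groups were WT HepG2 in the same medium, and 50000 cells went into the assay. Tazemetostat, a drug that blocks the methyltransferase EZH2, was added in DMSO. The labels call the controls untreated and do not mention DMSO for them, so drug and solvent cannot be told apart. The protocol describes DNase pretreatment for tazemetostat-treated cells, under every sample's label, and does not say whether controls had it. The labels do not say whether libraries came from separate cultures, so any p-value measures only the spread between these libraries.

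Olfactory receptors are G protein-coupled receptors that bind odorants on the cilia of sensory neurons in the nose. Each such neuron expresses a single receptor allele out of the whole repertoire, and the others stay packed in heterochromatin that carries H3K9me3, a mark distinct from the H3K27me3 that EZH2 deposits. Expression of many receptor genes starts from enhancers bound by LHX2, EBF proteins and the adaptor LDB1. Class I receptors (families OR51, OR52 and OR56) resemble those of fish and lie in a single cluster near the end of the short arm. Class II receptors make up the other families. Of the 172 genes, 55 were class I and 117 class II. The reading frame of a receptor lies in a single exon. Annotated gene models were short, with a median of 1082.5 bp, although 18 ran over 10 kb. The longest were OR51B5 with 202209 bp and OR9Q1 with 157736 bp.

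Depth was 17.2 and 23.8 M mapped tags in control replicates 1 and 2 and 19.8 and 26.6 M under tazemetostat. The libraries held 26133, 34768, 55313 and 54157 peaks, in the same order, so tazemetostat libraries had more peaks across the genome. The fragment length set for peak calling was 200 bp in both controls and 144 bp in both tazemetostat libraries, which cannot be told apart from the treatment. All 6 hepatocyte markers checked (ALB, AFP, APOA1, SERPINA1, TTR and HNF4A) had a peak in the gene or 10 kb either side in all 4 libraries, as did 54.0% of the other coding genes of chromosome 11. Within 1 kb of the start, 2 of the 6 had a call in all 4 libraries and 4 in at least 1. Of the other coding genes of chromosome 11, 28.2% and 54.1% did. Where no peak was listed there is no measurement, so an uncalled gene is not a gene measured at 0.

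Peaks that overlapped across libraries were merged, and 23 regions fell in receptor windows. They are numbered 1 to 23 along the chromosome. The sequences below are those of 5 of the 7 regions called in at least 3 libraries. The remaining regions, 16 and 21, are not printed. Sequences are cut to 300 bases around the stretch that the libraries share (hg38, plus strand, 5′ to 3′). Region 1 overlaps an untranslated exon of OR52K1 and is shown only by its CTCF match with 9 bases on either side. Capitals mark matches to any of 8 short motifs: the LHX2 core TAATTA, EBF, AP-1 TGANTCA, FOXA TGTTTAC, HNF4 CAAAGTCCA, SP/KLF GGGGCGGGG, the E-box CAGCTG, and CTCF, EBF and CTCF being given by name, each on both strands.
Region 1, end of OR52K1, chr11:4493423-4493451: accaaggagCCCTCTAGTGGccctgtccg
Region 10, OR9Q1 intron, chr11:58061256-58061555: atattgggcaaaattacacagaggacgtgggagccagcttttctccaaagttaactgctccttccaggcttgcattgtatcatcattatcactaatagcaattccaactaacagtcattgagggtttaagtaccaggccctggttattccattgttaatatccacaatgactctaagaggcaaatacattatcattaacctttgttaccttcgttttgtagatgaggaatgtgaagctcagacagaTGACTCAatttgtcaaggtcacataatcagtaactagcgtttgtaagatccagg
Region 11, OR9Q1 intron, chr11:58070657-58070956: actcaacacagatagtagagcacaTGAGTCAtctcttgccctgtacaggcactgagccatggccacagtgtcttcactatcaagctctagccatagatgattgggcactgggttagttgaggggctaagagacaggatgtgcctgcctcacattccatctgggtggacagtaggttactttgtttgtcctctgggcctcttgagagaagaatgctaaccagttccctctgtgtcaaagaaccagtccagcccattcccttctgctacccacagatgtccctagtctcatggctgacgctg
Region 12, OR9Q1 intron, chr11:58165472-58165771: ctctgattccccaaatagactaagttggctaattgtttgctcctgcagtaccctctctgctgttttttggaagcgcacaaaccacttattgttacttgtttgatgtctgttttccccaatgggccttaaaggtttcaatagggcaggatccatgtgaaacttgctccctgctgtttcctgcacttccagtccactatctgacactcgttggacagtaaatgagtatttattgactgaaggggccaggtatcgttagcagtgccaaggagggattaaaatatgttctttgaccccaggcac
Region 14, near OR5B12, chr11:58444273-58444572: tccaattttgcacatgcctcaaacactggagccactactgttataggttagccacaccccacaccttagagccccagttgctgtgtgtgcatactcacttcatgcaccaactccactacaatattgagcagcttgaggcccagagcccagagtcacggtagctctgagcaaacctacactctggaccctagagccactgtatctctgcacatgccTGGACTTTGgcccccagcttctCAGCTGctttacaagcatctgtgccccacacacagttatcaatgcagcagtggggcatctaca
In these letters, regions 10 and 11 carry an AP-1 match, region 14 an HNF4 and an E-box match, and region 12 none. Of those not printed, region 16 carries a FOXA match in its 300 bases and region 21 none.

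To learn how closed the receptor genes were, called peaks were counted in their windows. Control replicates 1 and 2 had 7 peaks each, and tazemetostat replicates 1 and 2 had 14 and 15. Receptor windows thus had 1.97, 1.97, 3.94 and 4.22 calls per Mb. Windows of the other coding genes of chromosome 11, taken outside receptor windows, had 12.0, 16.0, 25.7 and 23.9 calls per Mb in the same libraries. The receptor density was 5.66 to 8.14 times lower, in 4 of 4 libraries. The mean difference within a library was -16.4 calls per Mb ± 5.32 (SD, n = 4; exact sign permutation, two-sided, p = 0.13, the smallest possible with 4 libraries). Sequence of chromosome 11 outside every coding window also lay above the receptor windows, with 3.67, 5.15, 9.46 and 10.1 calls per Mb, and receptor windows reached 0.382 to 0.537 of that density (exact sign permutation, two-sided, p = 0.13). Base composition differed between these classes of sequence. Receptor windows were 37.7% G or C with 6.27 CpG per kb, other coding windows 43.0% with 11.5, and the remainder 39.9% with 7.99. The part of composition in the peak density was not tested, nor was how uniquely reads map among receptor genes of like sequence. Away from promoters, over 1 kb from every coding start, receptor windows still had 2.19, 2.19, 4.37 and 4.06 calls per Mb. The other coding windows had 8.01, 10.9, 19.0 and 17.8 there, a comparison added once the values were known. The size of the difference depended on the setting. Receptor gene bodies alone had 4.13, 3.09, 6.19 and 9.28 calls per Mb, above the sequence outside coding windows in control replicate 1 only. That was 2.51 to 5.17 times lower than in other coding gene bodies. Among peaks with a local fold of at least 8 the receptor density was 2.43 to 4.12 times lower. With libraries limited to an equal number of peaks it was 6.10 to 15.8 times lower.

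**Figure D1:**
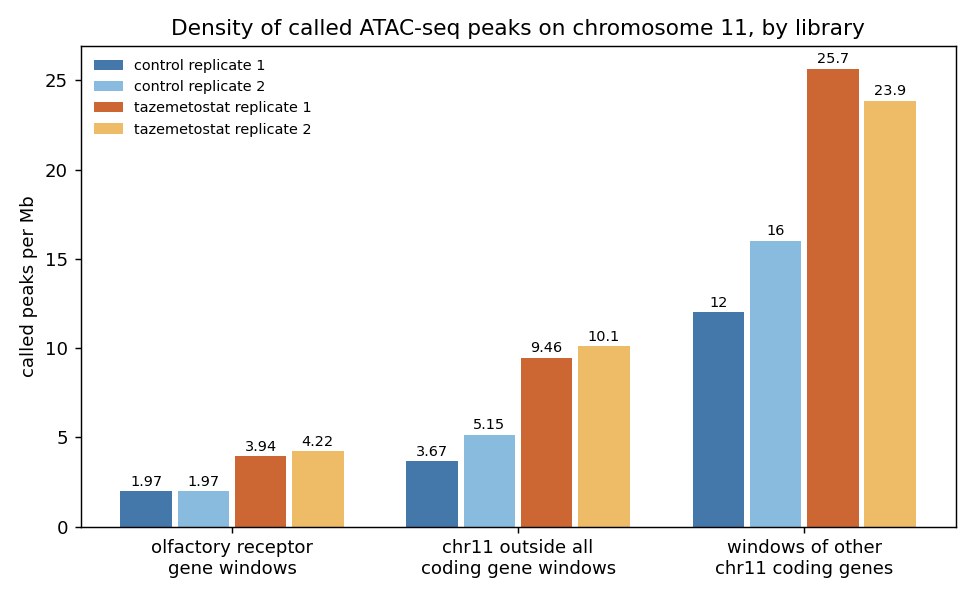
Called peaks per Mb in receptor gene windows, in chromosome 11 outside all coding gene windows and in windows of other coding genes, with a bar for each library and its value above it. In every library the receptor windows have the lowest bar, from 1.97 to 4.22 calls per Mb.

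More calls were listed in receptor windows under tazemetostat than in the controls, as in the remainder of the chromosome. The mean count went from 7 ± 0 to 14.5 ± 0.707 peaks (SD, n = 2 each), and both tazemetostat libraries lay above both controls. In a two-sided exact permutation test p was 0.333, the smallest that 2 against 2 libraries allow. The ratio of tazemetostat to control means was 2.07 in receptor windows, 1.77 in other coding windows and 2.22 outside coding windows. Receptor density as a share of the density in other coding windows was 0.143 ± 0.0290 in the controls and 0.165 ± 0.0164 under tazemetostat (SD, n = 2 each; exact permutation, two-sided, p = 0.667), a difference smaller than the spread of the controls. The direction in receptor windows was not kept under a limit on peak number, which drops more peaks from the tazemetostat libraries by construction. When each library was limited to its 26133 highest peaks, the receptor windows kept 7 and 4 calls in the controls and 3 and 3 under tazemetostat. Other coding windows then held 896 and 958 calls in the controls and 978 and 996 under tazemetostat. What sets the direction was not tested.

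Most receptor genes had no call at all. Of the 172 genes, 153 had no peak in the window in any library and 19 (11.05%, 95% Wilson interval 7.19 to 16.6%) had at least 1, against 87.3% (85.3 to 89.1%) of the other coding genes of the chromosome. By library, 6, 5, 13 and 11 receptor genes had a call. Windows overlap inside clusters, so these genes are not independent of each other. The merged gene bodies cover 0.969 Mb for the receptor genes and 64.6 Mb for the other coding genes. The shares are thus not at equal window length. Near annotated gene starts fewer receptor genes had a call, in a stretch shorter than the window. Whether transcription begins at the annotated start of these short gene models was not tested. Within 1 kb of the annotated start, 0 of 172 receptor genes had a call in either control or in tazemetostat replicate 1, for which 3 counts of the total allow a share of up to 1.74% in each and the Wilson interval reaches 2.18%. Tazemetostat replicate 2 had calls at 2 starts, those of OR52N2 and OR9Q1. Other coding genes had a call at the start in 32.1 to 51.1% of cases. RefSeq promoters (250 bases before to 50 after the start, GRCh38.p14) were at hand for 133 of the receptor genes. In 136 such promoters, the only call was at OR52N2 in tazemetostat replicate 2, whereas 53.0% of the 1128 promoters of other coding genes had a call in at least 1 library. Receptor promoters had a median of 37.0% G or C and 1 CpG, and the other promoters 62.3% and 21 CpG. The LHX2 core occurred in 32 of the 136 receptor promoters (23.5%) and in 3.63% of the others. These shares describe letters and not binding, and the part of base composition in them was not tested. EBF matches were found in 1.47% and 1.77%.

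**Figure D2:**
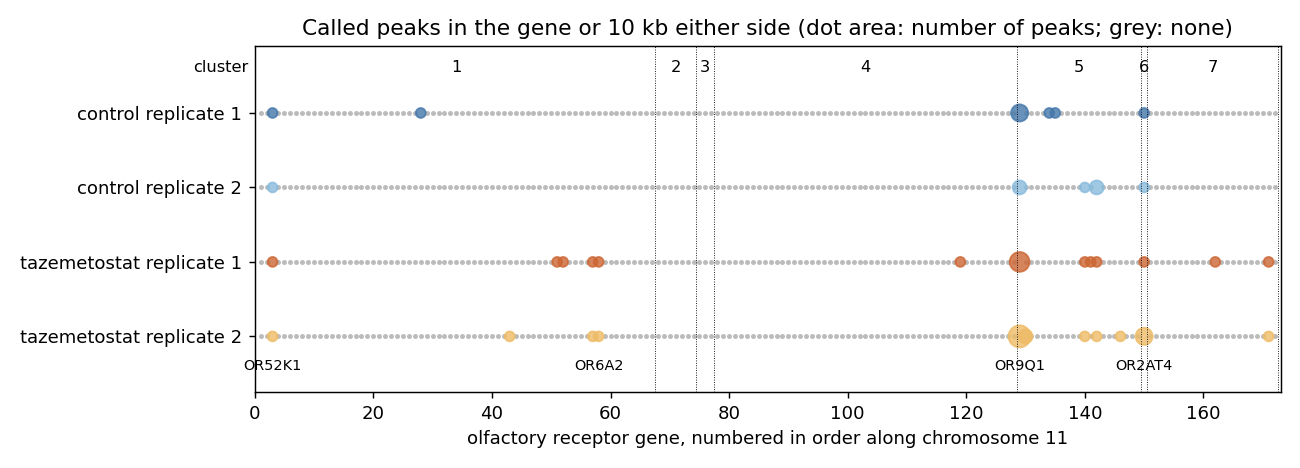
The 172 receptor genes in chromosomal order (horizontal axis) and the 4 libraries (rows). Dot area is the number of peaks in the gene or 10 kb either side and grey dots are genes with none; dotted lines part the 7 clusters. Calls sit at 19 genes, most heavily at OR9Q1, and clusters 2 and 3 have none.

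Clusters of receptor genes, parted where genes lay over 1 Mb apart, differed in their calls. Cluster 1, from OR52B4 to OR10A3, held all 55 class I genes and 12 of class II. It had 2, 1, 3 and 3 calls in 1.39 Mb of windows. Cluster 4, from OR4C46 to OR5AK2, held 51 genes in 0.983 Mb, and its single call was in tazemetostat replicate 1. No call fell in cluster 2 (7 genes, OR4B1 to OR4A47) or cluster 3 (3 genes, OR4C13 to OR4C45). Cluster 7, from OR6X1 to OR8A1 with 22 genes, had 2 calls in tazemetostat replicate 1 and 1 in tazemetostat replicate 2. Cluster 5, from OR9Q1 to OR10V1, held 21 genes and 12 of the 23 regions, with 7.67, 9.58, 13.4 and 15.3 calls per Mb. Without cluster 5, chosen for its values, the density of the receptor windows was 0.988, 0.659, 2.31 and 2.31 calls per Mb. Cluster 6 is OR2AT4 alone, with 1, 1, 1 and 3 calls. Class I windows had 1.72, 0.862, 1.72 and 1.72 calls per Mb and class II windows 2.09, 2.50, 5.01 and 5.42. The counts behind the class I values were 2, 1, 2 and 2 peaks, and a difference between the classes was not tested. A call was seen at 5 of 55 class I genes (9.09%, 3.95 to 19.6%) and 14 of 117 class II genes (12.0%, 7.26 to 19.1%), which overlap.

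Regions were then sorted by the libraries that called them. Both tazemetostat libraries but no control called 3 of the 23 regions (tazemetostat-only), or 13.0% (95% Wilson interval 4.54 to 32.1%), against 13.7% of all 80551 merged regions. There were 0 control-only regions, which allows a share of up to 14.3% by the Wilson interval, against 0.449% of all regions. Shared regions, called in all 4 libraries, numbered 2 (8.70%, 2.42 to 26.8%) against 20.4% of all. A further 12 regions (52.2%, 33.0 to 70.8%) were called in a single library, and 46.2% of all regions were. Each background share lay inside the interval of the receptor regions, so at this number of regions no difference from the background was detectable. By gene, 3 of 172 receptor genes (OR2AG1, OR6A2 and OR8B12) had calls in both tazemetostat libraries and no control library, or 1.74%, against 6.81% of the other coding genes of chromosome 11. The windows of those other genes are longer on average, so these shares are not at equal length.

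OR9Q1, a class II receptor gene whose model spans 157736 bp from chr11:58023881 to 58181616, held 6 regions in its body. Region 12 lay in an intron, from 58165155 to 58165919, 23151 bp from the nearest receptor start, that of OR9Q2. Its normalised tag count (tags per 10 M mapped tags) was 9.31 and 21.4 in control replicates 1 and 2, and 37.8 and 35.8 in tazemetostat replicates 1 and 2. These came from 16, 51, 75 and 95 tags, with exact Poisson intervals of 9.15 to 25.98, 38.0 to 67.1, 59.0 to 94.0 and 76.9 to 116. Both tazemetostat libraries lay above both controls, and the groups did not overlap. In limma, fitted over the 15383 regions with exactly 1 peak in each library, region 12 rose by 1.31 on the log2(normalised tag count + 1) scale (SE 0.34, limma adjusted p = 0.0120). Of all regions in that fit 42.7% passed the threshold as higher, and their median change was 0.70. The peaks were 300, 639, 732 and 662 bp long, and per kb of peak the change was 0.70 (limma adjusted p = 0.0126). With each library centred on its median the change was 0.55 (limma adjusted p = 0.576), and without control replicate 1 it was 0.75 (limma adjusted p = 0.0860). The fold over the local 10 kb went the other way, from 22.49 and 13.25 in the controls to 7.58 and 8.02.

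Region 10, in the same gene from 58061160 to 58061738, had normalised tag counts of 8.73 in control replicate 1 and of 26.2 and 23.7 in tazemetostat replicates 1 and 2. It was not called in control replicate 2, the deeper control. Tags numbered 15, 52 and 63, and the peak was 300 bp long in the control against 565 and 456 bp. Region 11, from 58070549 to 58071062, was called in control replicate 2 with 10.1 and in the tazemetostat libraries with 8.06 and 12.0, so the groups overlapped there. Region 9, from 58059849 to 58060211, had 8.73 in the first control and 8.06 in the first tazemetostat library. Regions 7 and 8 were called in tazemetostat replicate 2 alone with 6.78 and 6.02, and region 7 lay 864 bp from the start of OR9Q1. The nearest start of a coding gene that is no receptor was CTNND1, 271502 bp or more from each of these 6 regions.

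**Figure D3:**
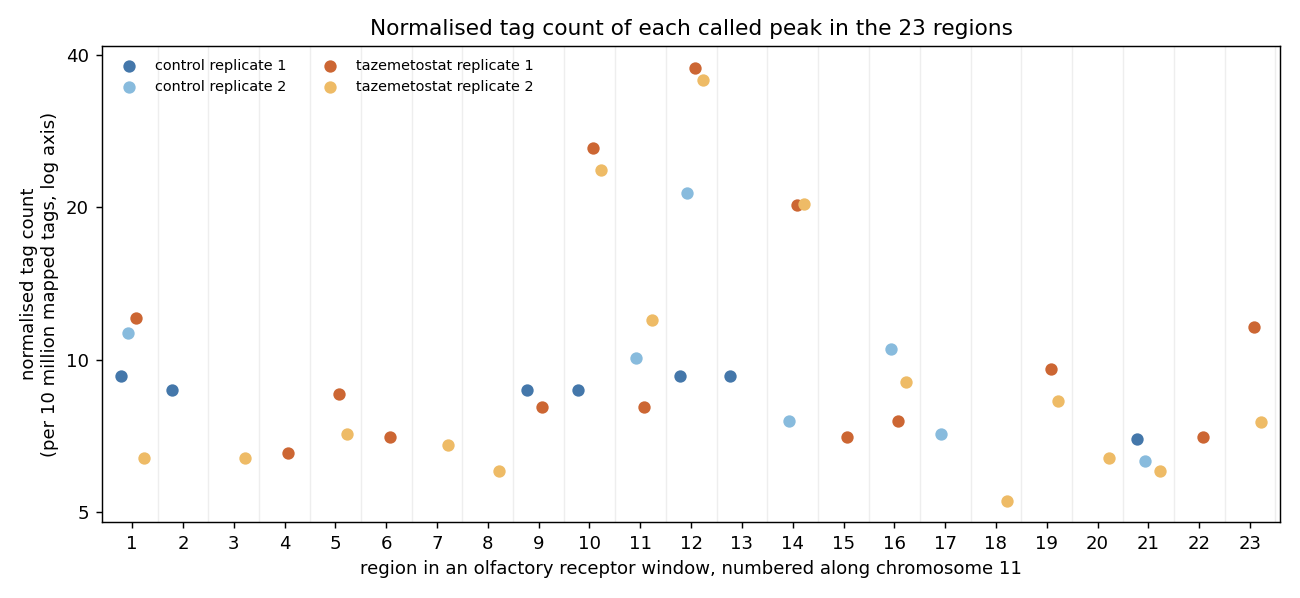
Normalised tag count of each called peak (log axis) in the 23 regions, numbered along chromosome 11, coloured by library; a library without a point had no call there. Regions 10, 12 and 14 reach above 20 in both tazemetostat libraries, and most other points lie between 5 and 12.

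OR52K1, a class I receptor gene from chr11:4482646 to 4493497, carried the other region called in every library. Region 1 (4493190 to 4493565) spans the 3′ end of the gene and holds the CTCF match shown above. Its normalised tag counts were 9.31 and 11.3 in the controls and 12.1 and 6.40 under tazemetostat. The highest and the lowest value both belonged to tazemetostat, and the change was -0.19 (SE 0.32, limma adjusted p = 0.588). Local folds were 10.14, 10.45, 18.48 and 10.57.

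Near OR5B12, a class II gene on the minus strand, region 14 (58444006 to 58444727) lay 1770 bp from the start. It had 7.56 in control replicate 2 and 20.2 and 20.3 under tazemetostat, from 18, 40 and 54 tags. Peak length went from 300 bp to 619 and 714 bp, and the local fold from 12.12 to 7.96 and 6.54. OR5AN1, known as a receptor for musk odorants, had region 16 in its window, with 10.5 in control replicate 2 and 7.56 and 9.03 under tazemetostat. Here the control value was the highest of the libraries with a call. Region 17, at 2619 bp from the same start, was called in control replicate 2 alone with 7.14.

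OR2AT4, a receptor also reported in skin keratinocytes, had 3 regions. Region 21 also lay in the window of SLCO2B1, which encodes an organic anion transporter of the liver. It had 6.98 and 6.30 in the controls and 6.02 in tazemetostat replicate 2, from 12, 15 and 16 tags. Local folds were 4.85, 5.51 and 4.42. The control peaks did not overlap each other and were joined only through the peak of tazemetostat replicate 2. Their tags lay below the header thresholds of 14 and 16 for a 300 bp peak. Region 19 (75072501 to 75072854) was tazemetostat-only with 9.57 and 8.28, and region 20, within the gene, had 6.40 in tazemetostat replicate 2.

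The other tazemetostat-only regions were at OR6A2 and OR8B12. OR6A2 is a class II gene whose product responds to aldehydes. Region 5 (6794614 to 6794950) covered an exon of it, with 8.57 and 7.15 from 17 and 19 tags, and also lay in the window of OR2AG1. Region 23 (124536565 to 124536940), 8393 bp from the start of OR8B12, had 11.6 and 7.53 from 23 and 20 tags. The control files list nothing at these places, which sets no level: their lowest listed values anywhere were 6.40 and 5.04, and the header thresholds for a 300 bp peak were 14 and 16 tags, or 8.14 and 6.72 normalised.

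The 12 regions called in a single library had values between 5.27 and 9.31. At OR52N2, a class I gene, region 3 (5808502 to 5808802) stood 122 bp from the start, inside TRIM5 on the annotation, with 6.40 in tazemetostat replicate 2. Region 18 covered an exon of OR4D10, with the lowest value of all receptor peaks, 5.27 in tazemetostat replicate 2 from 14 tags. In tazemetostat replicate 1 alone, region 4 between OR56A4 and OR56A1 had 6.55, and regions 6 near OR5M8, 15 near OR5B21 and 22 near OR10D3 had 7.05 each, from 14 tags. Only 3 of the 23 regions lay in the window of another coding gene. Over all 23 regions, 10 overlapped a receptor gene body, 0 overlapped a receptor start and 2 came within 1 kb of one, with a median distance of 6671 bp.

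Peaks in receptor windows were low and narrow. Their median normalised tag count was 8.73, 10.1, 8.32 and 7.15 in the 4 libraries, against 12.8, 13.0, 15.6 and 14.7 in the other coding windows. Receptor peaks were lower in 4 of 4 libraries, by 5.45 ± 2.32 on average (SD, n = 4; exact sign permutation, two-sided, p = 0.13, the smallest possible). Over 1 kb from every coding start, a comparison also added once the values were known, the mean difference was -3.39. It ran from -1.2 in control replicate 2 to -5.035 in tazemetostat replicate 1. Of the 43 receptor peaks, 31 had the initial length of 300 bp (72.1%), against 33.2% of the 5786 peaks in other coding windows. At most 20 tags were behind 28 of them (65.1%, against 27.0%). Among peaks of 300 bp alone, a comparison added once the values were known, the medians were 8.73, 7.35, 8.06 and 6.40 against 8.73, 7.56, 8.06 and 7.53, so the difference in tag count nearly closed at equal length.

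The fold over the local background went the opposite way. Receptor peaks had median folds of 7.95, 10.45, 8.99 and 8.40, above 5.80, 5.60, 5.85 and 5.62 in the other coding windows. The difference was 3.23 ± 1.16 (SD, n = 4) and positive in 4 of 4 libraries (exact sign permutation, two-sided, p = 0.13). It was 4.13 among peaks of 300 bp. A fold of at least 8 was reached by 55.8% of receptor peaks and by 27.5% of the others. The highest fold of the family was 23.52, at region 13 between OR10Q1 and OR1S1, from 16 tags in control replicate 1.

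**Figure D4:**
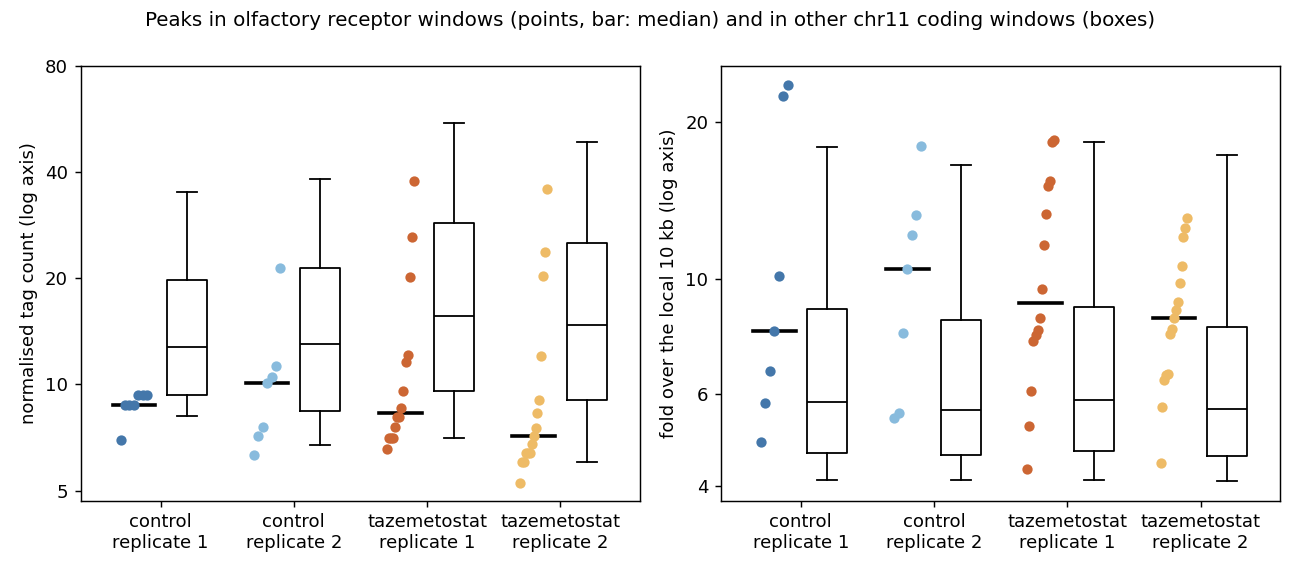
Normalised tag count (left) and fold over the local 10 kb (right) of peaks in receptor windows (points, with a bar at the median) and in other coding windows of chromosome 11 (boxes from the lower to the upper quartile, whiskers at the 5th and 95th percentile), on log axes. In each library the receptor median lies below the box median on the left and above it on the right.

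In base composition the called regions differed from the windows around them. Median G or C was 50.0% over the 23 regions (range 41.4 to 66.0%), above the 37.7% of the windows, and 53.8% over the 2595 regions of other coding windows. In the central 200 bp the CTCF consensus matched regions 1 and 3 (8.70%, against 5.70% of all 3492 regions of chromosome 11). The LHX2 core, AP-1, FOXA and E-box motifs matched 1 region each (4.35%, against 2.21, 7.79, 6.64 and 13.9%). EBF, HNF4 and SP/KLF matched 0 regions, and 0.859, 1.63 and 4.10% of all regions. Matches printed above outside these central bases are not counted here. At 23 regions these counts describe the letters only.

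Genes that act with the receptors were examined as a list of 28, covering signalling, transport and the chromatin of receptor choice. A call in the gene or 10 kb either side was found for 23 of them in at least 1 library and for 15 in all 4. Of the other coding genes of chromosome 11, 87.3% and 54.0% had such calls, so these window counts are near the background, though not at equal gene length. Within 1 kb of the start, 7 of the 28 had a call in at least 1 library and 5 in all 4. Those are lower shares than the 54.1% and 28.2% of the other coding genes. The 5 without any call in the window were CNGA2, RTP1, EHMT2, GNG13 and STOML3. CNGA4, a channel subunit of olfactory neurons on chromosome 11, had a peak at its start with 47.1 and 56.3 in the controls and 85.7 and 80.2 under tazemetostat (log2 change 0.68, SE 0.30, limma adjusted p = 0.0642). GNAL, the G protein subunit that couples to the receptors, rose at a region of chromosome 18 (11840436 to 11841011), from 9.31 and 13.0 to 37.3 and 30.5 (log2 change 1.53, SE 0.30, limma adjusted p = 0.00500). With each library centred on its median that change was 0.77 (limma adjusted p = 0.256). A further GNAL region (11857156 to 11857781) had a change of 0.86 (limma adjusted p = 0.0507; with the replicate block, 0.0473). ADCY3, the adenylyl cyclase of the cilia, had values of 18.6, 23.9, 22.7 and 20.3 at its region (log2 change 0.02, SE 0.30, limma adjusted p = 0.943). Neither GNAL nor ADCY3 had a call within 1 kb of its start in any library. OMP, which marks mature olfactory neurons, had a call in its window in 3 libraries but none within 1 kb of its start. KDM1A, a histone demethylase needed for receptor choice, had a peak at its start in 3 libraries, with 11.3 in control replicate 2 and 24.2 and 17.3 under tazemetostat. LDB1 had 1 call, in tazemetostat replicate 1. Across the list, 17 regions could be tested, of which 5 (29.4%) rose and 0 fell in limma, below the 42.7% of all regions that were called higher, with a median change of 0.68 beside 0.70 over all regions. With each library centred on its median limma called 0 of the 17 and 0 of all 15383 regions, with 4 and 1656 at an unadjusted p under 0.05.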

How the data were processed

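According to the labels and methods, reads were trimmed with Trim Galore 0.6.6 and aligned to hg38 with Bowtie2 2.3.5.1, and the authors called peaks in each library with HOMER 4.11.1. The deposited headers give stitched peaks from an initial 300 bp, a false discovery rate of 0.001 (the methods state 0.05), a fold of 4 over 10 kb and a local Poisson p of 0.0001. The headers do not state a shift for the transposase. Normalised tag counts, as deposited, are a signal per 10 M mapped tags. The fold over local background is a ratio the authors deposited and was used. Their deposited p-value, score and clonal ratio were not. Tags were recovered from the normalised tag count and lay within 0.25 of a whole number in 100% of peaks.

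Gene windows came from GENCODE release 44 (hg38). Peaks were merged at an overlap of 1 bp. The 23 to 48 peaks per library on alternate contigs of chromosome 11 were left out, and whether any lay at receptor genes was not examined. limma 3.58.1 in R 4.3.3 (lmFit and eBayes, no block, pseudocount 1, Benjamini-Hochberg over all tested regions, threshold 0.05) tested tag counts, and means of libraries were compared by exact permutation. Intervals cover counting error only. Named were receptor genes with a region in at least 3 libraries or a peak in the body or within 1 kb of the start, 8 in all; further genes were named beside single regions after their values were seen. Some items are not reported here. The members and lists were chosen with earlier results of these data known. The interval code and limma were tested on simulated data. Alternatives covered the window, the peak filter, the overlap, the scaling and leaving out libraries.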

Additional observations from a re-analysis of the deposited data

How the results depend on the processing

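The lower density of calls, the lower tag count and the higher local fold of receptor peaks had 15 or 16 alternatives each. Their mean over libraries kept its sign under all of them. Some of these settings could not change it, since each difference had the same sign in all 4 libraries. Those were leaving out a library, the replicate block, which repeats the main values, and scaling the density by mapped tags. The sign was open to change only under the other alternatives, where the mean kept it, though not every library did. Among peaks with a fold of at least 8, the median fold of receptor peaks in tazemetostat replicate 2 was 9.82 against 11.05 (exact sign permutation over libraries, p = 0.375). With libraries limited to as many peaks as the smallest, the difference between tazemetostat and control reversed, to -2.50 peaks and -0.703 calls per Mb. Left were 1 tazemetostat-only region and 8 genes with a call. That limit drops more peaks from the tazemetostat libraries by construction. There the mean tag count difference was -2.79 (exact sign permutation, p = 0.25), and it was 0 in tazemetostat replicate 2. Gene bodies alone gave 1 tazemetostat-only region and 5 genes with a call, and leaving out the cluster from OR9Q1 to OR10V1, chosen after the data were seen, gave 11 genes. Leaving out each library in turn gave 4 to 8 tazemetostat-only regions, since the set is then defined by fewer libraries, with 6 without control replicate 2, 8 without tazemetostat replicate 1 and 7 without tazemetostat replicate 2, and 14 to 19 genes with a call. The peak count difference then ranged from 7 to 8. Of the 2 receptor regions tested in limma, 1 was called higher, and 0 with each library centred on its median. Leaving out each library gave 0 to 1, with 0 without control replicate 1 and without either tazemetostat replicate, where for the latter limma called 0 of 15383 regions (3277 and 6009 at an unadjusted p under 0.05). Region 12 then changed by 0.75 to 1.87. For region 1 the range was -0.61 to 0.22, reversed without tazemetostat replicate 2.

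With the replicate number as a block the peak count difference was 7.50 (exact sign permutation p = 0.5, the smallest that 2 pairs allow) and region 12 kept its call (limma adjusted p = 0.00529); the block changed no call among the receptor results. Over all regions it took the limma calls from 6569 higher and 38 lower to 5046 and 27, and in the pathway list, refitted after the data were seen, from 5 to 6 higher, the added one being at GNAL. Across the other settings that list had 0 to 10 regions higher and 0 to 1 lower, with 0 higher without either tazemetostat replicate, 2 without control replicate 1 and 10 without control replicate 2. Deviations of equally numbered libraries had a correlation of -0.00246 over the 15383 regions, so libraries with the same number did not deviate together. The planned count models on recovered tags were not run. The receptor peaks rest on 12 to 95 tags each.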
